A study of Mus musculus with 2 samples.

Results

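The AP-1 group described here comprises 10 of the 55573 genes listed for 2 RNA-seq libraries of mouse mesenteric artery, chosen by symbol: Fos, Fosb, Fosl1, Fosl2, Jun, Junb, Jund, Atf3, Maff and Mafk. Each symbol was matched to its Ensembl identifier, and all 10 were found. The control library is labelled 5 mM K+ and the depolarized library 60 mM K+, and the labels give 60 min for each. The mice were wild type C57BL/6, 10 weeks old, and the tissue of 2 mice was pooled in each library. The study's methods describe the control segment as cut off and harvested before the remaining tissue was depolarized, so a difference in segment or time in solution cannot be told apart from K+. All solutions held tetrodotoxin, which the authors added to keep 60 mM K+ from activating autonomic nerves. Each condition had 1 library, so differences below carry no replicate check and no p-value.

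AP-1 is a family of dimeric transcription factors that pair through a leucine zipper and bind DNA through the basic region next to it. Fos proteins need a Jun partner, whereas Jun proteins also pair with each other and with Atf3. The small Maf proteins Maff and Mafk carry no activation domain of their own and act through partners such as Nrf2 or Bach1. Fos, Fosb, Jun, Junb and Atf3 are classical immediate early genes, whose transcription starts within minutes of a stimulus and without new protein. In excitable cells, Ca2+ entry reaches Fos through CREB at the cAMP response element (CRE) and through serum response factor, the route by which membrane depolarization can alter transcription.

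In all, 10480918 reads were counted in the control library and 11289598 in the 60 mM K+ library. All 8 smooth muscle markers were present, with summed levels of 36884 and 40487 counts per 1000000 reads (CPM, after TMM scaling in edgeR, which sets the libraries to a shared trimmed mean), and 0 of 8 passed 2-fold in either direction. Summed CPM of 8 endothelial markers was 3351 in the control and 4565 in the 60 mM K+ library, with 0 of 8 above and 1 below 2-fold. It was 7257 and 6002 for 7 fibroblast markers, 43.2 and 42.5 for 9 macrophage markers, 150 and 141 for 5 Schwann cell markers and 80.6 and 51.2 for 5 red blood cell markers, with 0 of those with at least 10 reads past 2-fold in these 4 lists. It was 125 and 105 for 6 adipocyte markers, of which 5 had at least 10 reads: 1 was above and 2 were below 2-fold, and their median log2(fold-change), 60 mM K+ over 5 mM K+, was -0.90. Summed CPM of 6 pancreas markers was 11.4 and 40.6, and 5 of them were above 2-fold. For all these marker counts, the shares of all genes with at least 10 reads were 5.54% above and 5.86% below 2-fold. The 8 lymphocyte and neutrophil markers had 9 reads in each library, with S100a9 at 0 in both, and the 4 mesothelial markers had 4 and 6 reads, with Msln and Upk3b at 0. In whole tissue, fewer cells of a type and less RNA per cell cannot be told apart. The part of these shifts in the values below was not tested.

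Control arteries already held very high levels of AP-1 mRNA. Fos, the founding member, had 30685 reads in the 5 mM K+ library and 38205 in the 60 mM K+ library. It ranked 25 among all genes by reads in the control library and 23 in the 60 mM K+ library. The 10 genes together took 1.07% of all control reads (95% exact binomial interval 1.06 to 1.07) and 1.46% of the 60 mM K+ reads (1.46 to 1.47). Among the 100 genes with the most reads were 3 of them in the control library, namely Fos, Fosb and Junb, and 6 in the 60 mM K+ library, where Fosl2, Jun and Atf3 joined them. These and all later intervals cover counting error only.

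Levels of different genes are compared here in the deposited FPKM, which are reads divided by gene length and by the counted reads of the library. In the control library the order was Fos at 2681, Junb at 1893, Fosb at 616, Atf3 at 611, Jun at 289, Fosl2 at 241, Maff at 193, Mafk at 159, Jund at 73.6 and Fosl1 at 2.11. Fosb and Atf3, neighbors in this order, did not differ beyond counting error, with a ratio of 1.01 (95% counting interval 0.984 to 1.03). In the 60 mM K+ library Fos was at 3099 and Junb at 2601, followed by Atf3 at 915, Fosb at 884 and Jun at 444. Fosl2 at 326 and Maff at 324 did not differ beyond counting error there (ratio 1.01, interval 0.975 to 1.04), and Mafk at 269, Jund at 134 and Fosl1 at 6.45 followed. The family therefore spanned a ratio of 1273 between its highest and lowest level in the control library and of 480 in the 60 mM K+ library. The gene lengths behind the deposited FPKM, 1092 bases for Fos and 1151 for Junb, are shorter than the exons annotated for these genes in GENCODE vM1, which cover 2352 and 1807 bases. With the annotated lengths Fos and Junb were at 1245 and 1206 in the control library, and in the 60 mM K+ library Junb at 1657 lay above Fos at 1439. The order of Fosb and Atf3 in the 60 mM K+ library turned as well, with Fosb at 771 and Atf3 at 677. So did that of Fosl2 at 217 and Maff at 244. Which gene of these pairs stood higher in the 60 mM K+ library thus depended on the length used. In the control library the near tie of Fosb and Atf3 did too, with Fosb at 537 and Atf3 at 452. The counting intervals do not cover the choice of length.

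**Figure D1:**
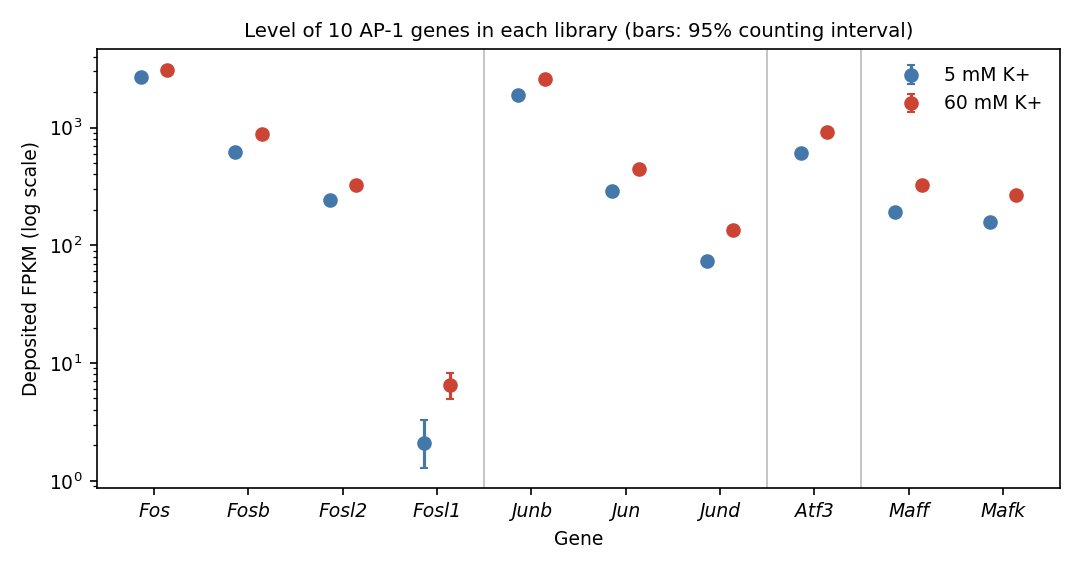
Deposited FPKM (log scale) of the 10 genes in the 5 mM K+ (blue) and 60 mM K+ (red) libraries, 1 point per library, with bars for the 95% counting interval. The red point lies above the blue one for every gene, from Fosl1 at 2.11 and 6.45 to Fos at 2681 and 3099.

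After scaling, the count of each of the 10 genes was higher in the depolarized library, and the median log2(fold-change) was 0.81, a 1.75-fold increase. Log2(fold-change) is positive where the TMM-scaled count was higher in 60 mM K+. Only Fosl1 and Jund, 2 of 10 genes, exceeded a log2(fold-change) of 1, and 0 of 10 lay below -1. This is the 2-fold limit of the study's methods, which also set a limit of 0.005 on q. The study's list of changed genes holds Jund and not Fosl1. Among the 14829 genes that reached 10 reads over both libraries, 5.54% exceeded 1 and 5.86% lay below -1. The median of those genes was -0.0047. The counting interval of log2(fold-change) lay above 0 for all 10 genes, but it did so for 25% of these 14829 genes and for 50.7% of the 4096 genes with at least 1000 reads, whose median was 0.13.

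Among the Fos proteins, the most abundant gene had the smallest change. Fos (ENSMUSG00000021250, chromosome 12, 86814840 to 86818223 on mm9, 4 exons) showed 0.42 in log2(fold-change), with a 95% counting interval from 0.40 to 0.44. Scaled by total reads it was 0.21, and scaled to Ppia and Hprt, the housekeeping genes of the study's qPCR, it was -0.073, so that its direction depended on the scaling. Fosb (ENSMUSG00000003545, chromosome 7, 19888070 to 19895394, 4 exons), whose truncated splice form is known for its stability in neurons, had 21099 and 32643 reads. Its log2(fold-change) of 0.73 (interval 0.71 to 0.76) exceeded that of Fos. The gene counts do not separate the full-length and truncated forms of Fosb.

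Fosl2 and Fosl1 encode the Fos-related antigens Fra-2 and Fra-1, which lack the strong activation domain of Fos. Fosl2 (ENSMUSG00000029135, chromosome 5, 32438845 to 32460204, 4 exons) had 9854 reads in 5 mM K+ and 14369 in 60 mM K+, which gives 0.65 in log2(fold-change) (interval 0.61 to 0.68). Fosl1 (ENSMUSG00000024912, chromosome 19, 5447703 to 5455945, 4 exons) had 20 and 66 reads, and its log2(fold-change) of 1.82 was the highest of the 10 (interval 1.08 to 2.62). It was the 1 member whose interval lay wholly above 1, beside 1.77% of genes with at least 10 reads. Its level stayed far under that of the other Fos genes in both libraries. Fosl1 overlaps Ccdc85b on the opposite strand over 2783 bases, and the kit does not mark strand, so the reads of Fosl1 are uncertain. Ccdc85b was not listed for these libraries under its GENCODE vM1 identifier, so its own reads are not known.

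The Jun genes each consist of a single exon. Junb (ENSMUSG00000052837, chromosome 8, 87500811 to 87502617), a weaker activator than Jun that often opposes it in growth control, had 22840 and 33795 reads, with a log2(fold-change) of 0.67 (interval 0.64 to 0.69). Jun (ENSMUSG00000052684, chromosome 4, 94715725 to 94718913), the partner that forms the classical Fos/Jun dimer, had 9660 reads in 5 mM K+ and 15988 in 60 mM K+, and its log2(fold-change) was 0.83 (interval 0.79 to 0.86). The transcript BC042782, which overlaps Jun by 689 bases on the opposite strand, had only 7 and 4 reads.

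Jund is the Jun protein usually described as constitutive, and it was the least abundant Jun mRNA here. Jund (ENSMUSG00000071076, chromosome 8, 73221638 to 73224515) had 1286 reads in 5 mM K+ and 2522 in 60 mM K+, a log2(fold-change) of 1.07 (interval 0.98 to 1.17). The interval holds 1, and with total counts the value was 0.86, below the 2-fold limit. Gm11175 lies within Jund on the opposite strand over 543 bases and was listed at 0 in both libraries, so the reads of Jund in this stretch are uncertain.

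Atf3 (ENSMUSG00000026628, chromosome 1, 192994175 to 193007219, 4 exons) encodes a stress-induced factor that represses transcription as a homodimer. It had 9400 and 15173 reads, with a log2(fold-change) of 0.79 (interval 0.75 to 0.83). Both small Maf genes lay close under 2-fold. Maff (ENSMUSG00000042622, chromosome 15, 79177971 to 79189502, 3 exons) had 3215 and 5828 reads, with 0.96 in log2(fold-change) (interval 0.90 to 1.02). Mafk (ENSMUSG00000018143, chromosome 5, 140267467 to 140278607, 3 exons) had 3602 and 6571 reads, with 0.97 in log2(fold-change) (interval 0.91 to 1.03). Mafk shares 169 bases with Tmem184a, which was listed at 0 reads in both libraries.

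**Figure D2:**
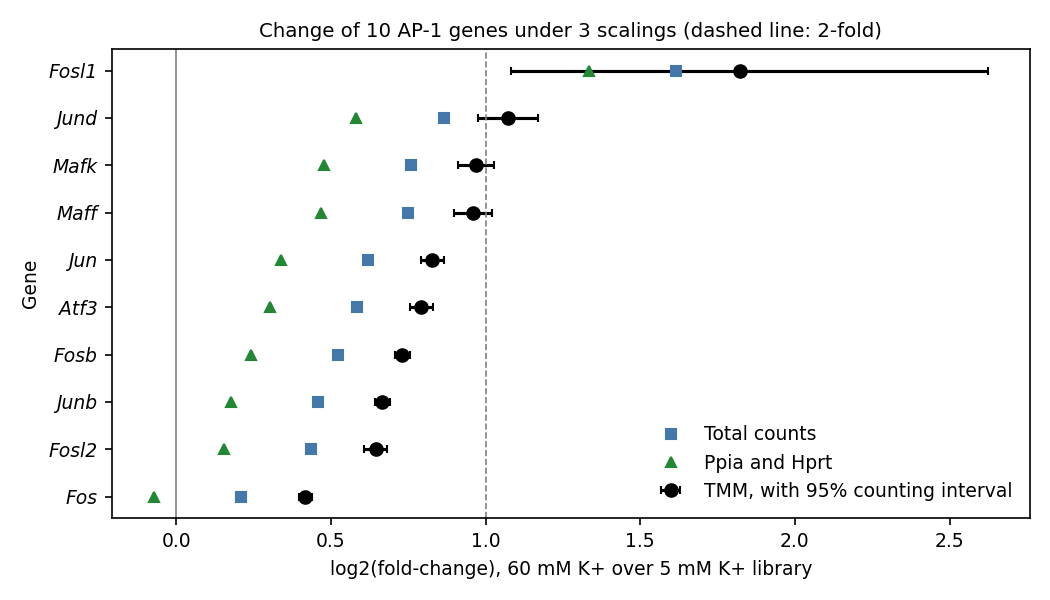
Log2(fold-change) of each gene between the 60 mM K+ and 5 mM K+ libraries, with TMM scaling and its 95% counting interval (black circles), total counts (blue squares) or scaling to Ppia and Hprt (green triangles). Fosl1 lies past the dashed 2-fold line under each of the 3 scalings, Jund only with TMM, and Fos crosses 0 with the housekeeping genes.

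The order of these changes within the family does not depend on the scaling, because both genes of a pair are read from the same libraries. Of 45 pairs of members, 40 differed beyond counting error. Fos stood lowest: the next gene, Fosl2, exceeded it by 0.23 in log2(fold-change) (95% exact interval of the difference 0.18 to 0.27). Mafk and Maff differed by 0.01 (-0.08 to 0.10), Jun and Atf3 by 0.04 (-0.02 to 0.09), and Junb and Fosl2 by 0.02 (-0.02 to 0.07). Jund could not be separated from Mafk (0.10, -0.01 to 0.22) or Maff (0.11, -0.0026 to 0.23). Fosl1 lay above Jund by 0.75, with an interval from 0.0028 to 1.56. How far these differences would repeat in other arteries is not known from 2 libraries.

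In absolute terms Fosb and Junb gained the most reads. Summed over the family, TMM-scaled CPM was 9911 in 5 mM K+ and 15726 in 60 mM K+, and log2(fold-change) of the sum was 0.67 (interval 0.66 to 0.68). Of this increase, Fosb made up 21.2%, Junb 20.5% and Fos 15.7%, whereas Fosl1, with the highest fold-change, made up 0.078%. The ratio of Fos to Fosb reads was 1.45 in the control library and 1.17 in the 60 mM K+ library, and that of Junb to Jun reads was 2.36 and 2.11.

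**Figure D3:**
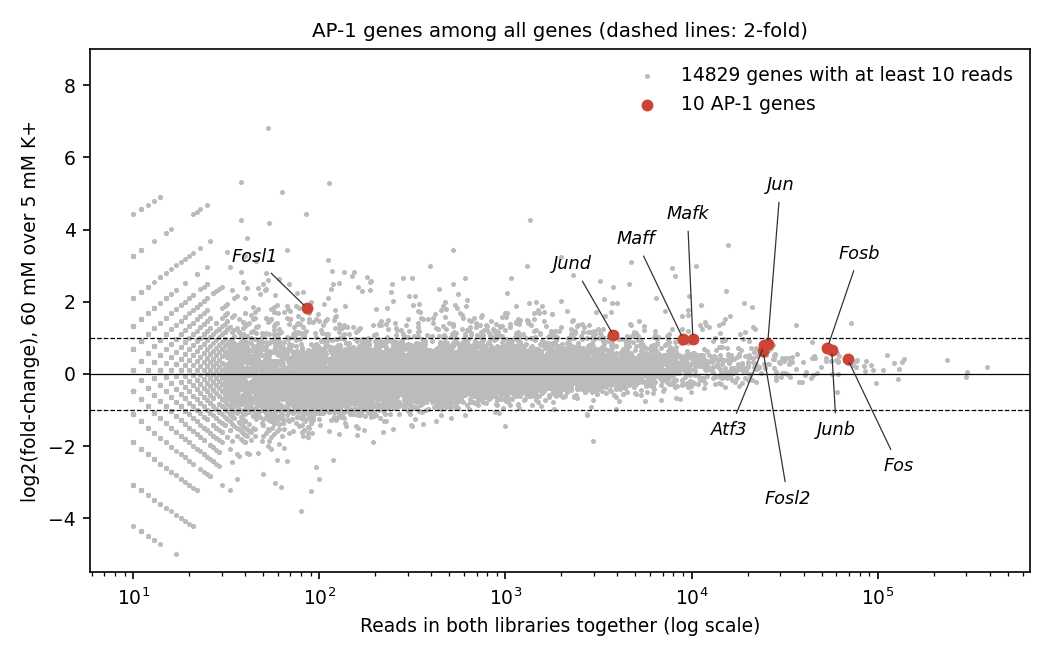
Log2(fold-change) against the number of reads in both libraries together (log scale) for 14829 genes with at least 10 reads (grey) and the 10 AP-1 genes (red). The spread of the grey points narrows to the right, and all AP-1 genes but Fosl1 lie at the right, between 0.42 and 1.07.

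Most of the family lay among the most heavily read genes. Of the 9 members with at least 1000 reads, 1 exceeded 2-fold, beside 3.59% of the 4096 genes with that many reads, and 0 lay below -1, beside 0.0732%. The interval of 0 of these 9 lay wholly above 1, beside 2.76%. The log2(fold-change) of Fos was higher than that of 80.6% of these genes. For Fosl2, Junb, Fosb, Atf3 and Jun the share was between 91.3% and 94.5%, and for Maff, Mafk and Jund between 95.8% and 96.9%. With total counts every log2(fold-change) was lower by 0.21, and the median of the 10 genes was 0.60 beside -0.21 for genes with at least 10 reads. With total counts, 601 genes were above and 1285 below 2-fold, compared with 822 and 869 with TMM.

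Within the Fos and Jun groups the makeup of the mRNA pool shifted by at most a few percentage points. In the Fos group, Fos made up 75.7% of summed FPKM in 5 mM K+ and 71.8% in 60 mM K+, while Fosb made up 17.4% and 20.5%. Fosl2 made up 6.8% and 7.55%, and Fosl1 0.060% and 0.15%. In the Jun group, Junb made up 83.9% and 81.8%, Jun 12.8% and 14% and Jund 3.26% and 4.21%. Maff and Mafk kept their proportion, with Maff at 54.8% and 54.6%. Summed FPKM of the Fos group was 1.57 times that of the Jun group in the control library and 1.36 times in the 60 mM K+ library. With annotated exon lengths the share of Fos was 64.1% and 59.2%, and that of Junb 78.4% and 76.05%, a lower level with the same direction. The share of Fosb was then 27.6% and 31.7%, and the ratio of the Fos to the Jun group 1.26 and 1.12.

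**Figure D4:**
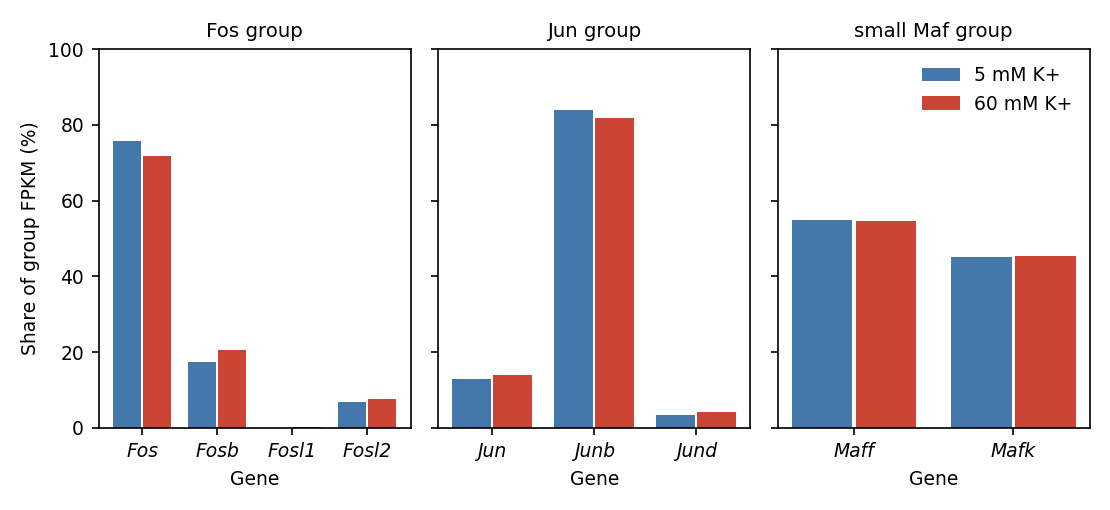
Share of each gene in the summed deposited FPKM of its group (bars from 0, in percent) in the 5 mM K+ (blue) and 60 mM K+ (red) libraries. Fos moves from 75.7% to 71.8% and Junb from 83.9% to 81.8%, whereas Maff and Mafk barely move.

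Short stretches of the promoters are shown because the study links depolarization to CREB, which binds the CRE. Promoter windows of 300 bases, from 250 before to 50 after the start, were taken from RefSeq on GRCm38.p6 for 9 of the 10 genes (11 windows, 3 of them of Maff); Fosl1 was not in the table. The full CRE (TGACGTCA), searched on both strands, was found in 1 of 9 genes, Maff, compared with 2.03% of 27025 genes. The short CRE (TGACG, both strands, also matching inside a full CRE) was found in 6 of 9 genes, Fos, Fosb, Junb, Atf3, Maff and Mafk, compared with 23% of all genes. Capitals mark the match, and each stretch is on the strand of its gene:
Maff: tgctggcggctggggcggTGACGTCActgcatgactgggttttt
Fos: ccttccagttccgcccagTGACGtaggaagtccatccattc
Fos: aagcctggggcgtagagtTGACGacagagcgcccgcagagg
Fosb: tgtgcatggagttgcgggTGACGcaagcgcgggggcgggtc
Junb: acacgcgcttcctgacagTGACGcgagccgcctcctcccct
Atf3: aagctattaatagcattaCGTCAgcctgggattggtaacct
Mafk: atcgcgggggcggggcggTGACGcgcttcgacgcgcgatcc

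The CRE of Maff begins 29 bases before the start, in the stretch at chr15:79347473-79347516 (+ strand). The short sites of Fos begin 66 and 129 bases before the start, at chr12:85473806-85473846 and chr12:85473743-85473783 (+ strand). In Fosb the short site begins 60 bases before the start (chr7:19310083-19310123, - strand), in Junb 106 bases (chr8:84978832-84978872, - strand), in Atf3 7 bases (chr1:191183318-191183358, - strand) and in Mafk 41 bases (chr5:139791477-139791517, + strand). Another window of Maff held another short site, 122 bases before its start. Jun, Jund and Fosl2 held no exact match to these letters in their windows, and variants of the letters were not searched. Their log2(fold-change) was 0.83, 1.07 and 0.65, beside 0.42 to 0.97 for the genes with a match. A link between a match and the change was not tested. The AP-1 site itself, the TPA response element (TGANTCA, its own reverse complement), was found in 0 of 9 genes and in 8.97% of all genes, and the CArG box of serum response factor in 0 of 9 and in 1.81%. The NF-kB site was found in 4 of 9 genes, Fos, Fosb, Fosl2 and Maff, and in 5.14% of all genes. A match describes the letters in the window and does not show binding. The windows reach only 250 bases before the start, so 0 matches do not show that a gene lacks a site farther out.

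Among other ATF and BATF factors that can pair with AP-1 proteins, 3 of 9 genes with at least 10 reads exceeded 2-fold and 0 fell below it, beside 5.54% and 5.86% of all genes with that many reads, and the median log2(fold-change) was -0.08. Ddit3, the stress factor CHOP, had 211 and 487 reads, with 1.31 in log2(fold-change) (1.07 to 1.55). Atf4, which drives amino acid and stress genes, had 2764 and 6074 reads and a value of 1.24 (1.17 to 1.30). Batf, with 5 and 11 reads, was the third (1.24, interval -0.40 to 3.12) and is named because it belongs to this count, after its values were seen. Atf5 and Atf6, the others with the most reads, had values of -0.17 and -0.17. Atf7 was listed at 0 in both libraries.

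The other genes of the small Maf network had lower values than Maff and Mafk, a difference that was not tested. Of 9 other Maf, NFE2 and BACH genes with at least 10 reads, 0 passed 2-fold in either direction. Of all genes with that many reads, 5.54% were above and 5.86% below 2-fold. The median of the 9 was 0.42. Nfe2l2, which encodes Nrf2, had 1395 and 2333 reads, and its log2(fold-change) was 0.84 (interval 0.75 to 0.94). Nfe2l1, with the most reads, had 3677 and 3487 and a value of 0.025 (-0.042 to 0.092). Nrl and Nfe2 were listed at 0.

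Of the MAP kinases that act on AP-1, 3 of 18 exceeded 2-fold and 0 fell below it, beside the same 5.54% and 5.86%, with a median of 0.11, or -0.10 with total counts. Map3k8, the kinase Tpl2 that starts a MAP kinase cascade, had 143 and 354 reads, and its log2(fold-change) was 1.41 (interval 1.12 to 1.70). Map2k3 and Map2k6, which activate p38, had values of 1.15 and 1.02, which were 0.94 and 0.81 with total counts. Map2k6 had only 38 and 72 reads, and its interval ran from 0.44 to 1.63. Mapk3 was at 0.10, with 1590 and 1589 reads. Of 13 genes listed here as factors at the Fos promoter, 0 passed 2-fold in either direction, beside the same 5.54% and 5.86%. The median of the 13 was 0.12, or -0.09 with total counts. Stat3, a factor activated by cytokines, had 3109 and 5470 reads and a value of 0.92 (interval 0.85 to 0.98), and Mef2d was at 0.25. Creb1, the gene of CREB, was at -0.32 and Srf, that of serum response factor, at 0.28. Crem lay close under 2-fold, at 0.99 (interval 0.88 to 1.10). Creb1, Srf and Crem were named after their values were seen.

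Of 18 textbook AP-1 target genes with at least 10 reads, 11 exceeded 2-fold and 1 fell below it, beside 5.54% and 5.86% of all genes. The median of the 18 was 1.24. The study had already named some of these genes, Ccl2 and Il6 among them, from the same libraries, so the count is not independent evidence. The chemokine gene Ccl2 was at 2.98 (47 and 346 reads) and the cytokine gene Il6 at 2.42 (631 and 3152 reads). Plaur, the urokinase receptor gene, was at 1.89, Hmox1, which encodes heme oxygenase, at 1.88, Ptgs2, the inducible cyclooxygenase gene, at 1.47 and Timp1, an inhibitor of metalloproteinases, at 1.38. Vegfa, the angiogenic growth factor gene, was at 0.62, with 1047 and 1501 reads. Of the matrix metalloproteinases, Mmp10 and Mmp13 were listed at 0, and Mmp3 was at 0.23, with 889 and 973 reads. Mmp9 was the gene below 2-fold, with 16 and 3 reads (counting interval of log2(fold-change) -4.73 to -0.51). Mmp3 and Mmp9 were named after their values were seen.

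**Figure D5:**
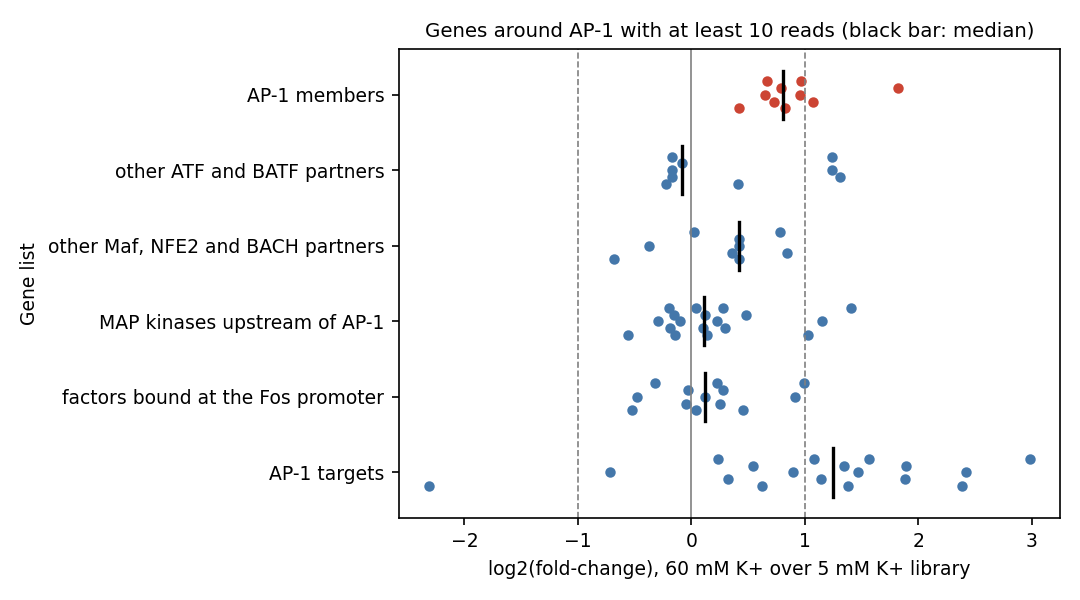
Log2(fold-change) of the 10 AP-1 genes (red) and of 5 lists of partners, kinases, promoter factors and targets (blue), with 1 point per gene with at least 10 reads and a black bar at the median. The AP-1 genes lie between 0.42 and 1.82, and the targets between -2.31 and 2.98 with a median of 1.24.

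By nearest pair of log2(FPKM) values over the 2 libraries, the genes most like Fosl1 were Gls2 (2.16 and 6.43 FPKM), Nfatc2 (2.04 and 5.96) and Ikzf4 (1.95 and 6.85), at distances of 0.036, 0.12 and 0.14. The genes most like Fos were Tpm2 (2934 and 3235 FPKM), Csrp1 (2957 and 3165) and mt-Nd2 (2591 and 2803), at distances of 0.14, 0.14 and 0.15. These distances rest on 2 values per gene.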

How the data were processed

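RNA was extracted from mesenteric arteries, treated with DNase and selected for poly-A. Alignment by the authors was to mm9, and the submitters' processing notes list TopHat2 2.0.12, HTSeq 0.6.1 and edgeR 3.0.8. The authors deposited raw counts of reads per gene, and FPKM values that were scaled by total counts without a TMM factor. The annotation used for counting is not given in the sources used here; 32601 of the 55573 listed identifiers are in GENCODE vM1 (NCBIM37), which gave symbols and mm9 positions.

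Library sizes were 10480918 and 11289598 reads, and TMM factors from edgeR 4.0.16 in R 4.3.3 were 1.07 for 5 mM K+ and 0.930 for 60 mM K+. A count of 0 was set to 0.5. Intervals are 95% Clopper-Pearson intervals from each gene's reads, or exact conditional intervals for pairs of genes. With 1 library per condition, a quasi-likelihood model in edgeR has no residual degrees of freedom, and a gene was counted as changed past 2-fold. The script was tested on simulated data with 21374 genes for 60 mM K+ against 5 mM K+. The 200 genes changed 4-fold were all recovered, and 0 unchanged genes were called. A call there needed both a 2-fold change and the q limit of the random-sampling test described below. These calls therefore do not test the 2-fold rule alone. Intervals held the true value for 95.97% of genes with 10 or more expected reads. The simulated counts held counting error only, and these intervals were given the true library sizes. This coverage therefore tests neither the TMM scaling nor the spread between arteries.

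The members and gene lists were chosen with earlier results of these data known. Named genes are the members, up to 6 genes of each list past 2-fold with at least 100 reads and the 2 most read others, the 3 genes nearest to the highest and lowest members, and Ppia and Hprt; some genes this rule names are not reported here. Alternatives were other scalings (DESeq2 1.42.0 for median of ratios), FPKM with pseudocounts of 0.1 and 1, other filters and other call rules. Figures used matplotlib 3.10.9. No sequence of the proteins was used here.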

Additional observations from a re-analysis of the deposited data

How the results depend on the processing

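No paired analysis was possible because 5 mM K+ and 60 mM K+ had 1 library each. Of 60 values of single members under other scalings or with FPKM, 59 stayed above 0, and the exception was Fos at -0.073 when scaled to Ppia and Hprt, which were themselves at 0.51 and 0.47 with TMM. That scaling lowers every log2(fold-change) by 0.49 by construction. It gave a median of 0.32 for the 10 members, 1 member past 2-fold, and 385 genes above and 2313 below 2-fold. The 60 values are not independent. Each scaling of the counts moves all members by the same amount, and both FPKM settings use total-count scaling. The number of members past 2-fold was 2 with TMM, upper-quartile and median-of-ratios scaling and with a random-sampling test of the reads at a q of 0.005, which was written here and compares these libraries, not the conditions. It was 1 (Fosl1) with total counts, with FPKM at a pseudocount of 0.1 or 1, and when the nearest interval end had to pass 1. It was 0 with edgeR's exact test at an assumed coefficient of variation of 0.2 or 0.4, which adds variation by construction. The study's own list, made with limits of 2-fold and a q of 0.005, holds Jund and not Fosl1. The random-sampling test written here therefore called a member that the study did not list.

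Over all genes, 822 were above and 869 below 2-fold. With FPKM these were 497 and 1037 at a pseudocount of 0.1, and 240 and 193 at a pseudocount of 1. With the nearest interval end they were 263 and 73, with the random-sampling test 452 and 235, and with the exact test 138 and 19 at 0.2 and 3 and 0 at 0.4. Without a filter they were 3081 and 2491, and with at least 100 reads 329 and 87. Annotated exon lengths, chosen after the data were seen, moved the share of Fos from 75.7% to 64.1% in 5 mM K+ and from 71.8% to 59.2% in 60 mM K+, that of Fosb from 17.4% to 27.6% and from 20.5% to 31.7%, and that of Junb from 83.9% to 78.4% and from 81.8% to 76.05%. Depth limits the precision for Fosl1, with 20 and 66 reads. The spread between arteries could not be measured for any member.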
